A study of Homo sapiens with 2 samples.

Results

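The genes described here are the aminoacyl-tRNA synthetases and the best-known genes of the ATF4 amino acid response. The rule went by gene symbol and used no measured value. It took every gene whose symbol has the form of a synthetase (a letter for the amino acid followed by ARS, with or without a number), EPRS1, FARSA and FARSB, and 17 named enzymes, transcription factors and stress genes. This gave 50 of the 19775 genes read from the arrays, 33 synthetases and 17 others. The synthetase genes MARS1, QARS1 and TARS2 had no probe set with 1 listed gene symbol and were not analysed here.

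HCC4006 is a human NSCLC (non-small cell lung cancer) cell line with a deletion in exon 19 of EGFR, labelled as sensitive to the EGFR inhibitor erlotinib. HCC4006ER cells carry the same deletion, grew out of the HCC4006 line during months of culture with erlotinib at doses raised step by step, and are labelled as resistant with an EMT (epithelial-mesenchymal transition) phenotype. Both were grown for 48 hours in RPMI medium with 10% FBS and received no other treatment before harvest. For each line 3 RNA preparations were mixed and hybridized to 1 Affymetrix HG-U133 array, so there is no replicate and no test, and each difference below is a description of 2 arrays of pooled RNA. HCC4006ER is a population selected under the drug, so selection and time in culture cannot be told apart in these values.

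The labels were checked against marker genes. All 6 lung epithelial markers were above background on both arrays. E-cadherin (CDH1) read 10469 in HCC4006 and 11041 in HCC4006ER, and ZEB1, at 42.5 and 53.1, lay under the background level of both arrays, whereas vimentin (VIM, log2 fold 0.61), N-cadherin (CDH2, 1.03) and fibronectin (FN1, 0.73) were higher in HCC4006ER. The CDH1 and ZEB1 signals go against the EMT phenotype that the label gives these cells. They also differ from the study's own results. From its array the study reported far higher ZEB1 mRNA and loss of E-cadherin mRNA in HCC4006ER. By quantitative PCR it reported lower EPCAM mRNA, whereas EPCAM read 11129 in HCC4006 and 11642 in HCC4006ER here. Whether the deposited HCC4006ER values come from cells with that phenotype could not be settled from the files, and every HCC4006ER value below is that of the array so labelled. Of 9 fibroblast markers, 2 were above background in HCC4006 and 1, COL1A1, in HCC4006ER, with LUM, DCN and COL3A1 under the background level on both, and their summed signal was 1050 and 1210. The 7 leukocyte and endothelial markers summed to 548 and 405. The part of such cells in the results was not tested, and in bulk RNA fewer cells of a kind and less RNA per cell cannot be told apart.

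Aminoacyl-tRNA synthetases attach each amino acid to its tRNA. Separate nuclear genes encode most of the enzymes of the cytosol and of the mitochondria. When amino acids run short or the endoplasmic reticulum is under stress, kinases phosphorylate the translation factor eIF2, general protein synthesis slows, and translation of ATF4 increases. ATF4 pairs with C/EBP proteins on composite elements in the promoters of genes for amino acid synthesis, amino acid uptake and tRNA charging, so that its activity is set largely by translation and its targets are often read as its output. Cancer cells of the lung are known to use this program to feed serine and asparagine into growth.

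A search for the core of that composite element, TGATGNAA on either strand (N is any base), was made in the RefSeq promoters of GRCh38.p14, each running from 250 bases before to 50 bases after a gene's start. The sequences of 42 of the 50 genes were in the table, and 10 of these held the core (23.8%). It was found in 2.77% of the 8984 genes above background on both arrays that had a promoter. Of all 27305 genes with a promoter, 4.46% held it. Counted by window and not by gene, it was found in 3.62% of all 35116 promoter windows of the same length. Among cytosolic synthetases 6 of 14 held it, and among mitochondrial synthetases 1 of 13. No second motif was searched. A match is a description of letters, not a measured binding site.

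Windows of at most 60 bases around the 10 matches, ending at most 30 bases after the start, are printed because they let the measured folds be set beside the element that ATF4 is known to use. They run 5′ to 3′ along the gene's own strand, the core is in capitals, and a core on the opposite strand reads TTNCATCA. In order of log2 fold they lie at chr7:97872443-97872502 (ASNS, minus strand), chr15:40953236-40953295 (CHAC1, plus), chr16:70289660-70289719 (AARS1, minus), chr9:92293677-92293736 (IARS1, minus), chr18:57621807-57621848 (NARS1, minus), chr11:3057394-3057451 (CARS1, minus), chr19:33374045-33374104 (CEBPG, plus), chr5:33440941-33440994 (TARS1, plus), chr12:32756061-32756120 (YARS2, minus) and chr7:30594819-30594878 (GARS1, plus).
ASNS: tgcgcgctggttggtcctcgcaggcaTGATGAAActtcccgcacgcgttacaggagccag
CHAC1: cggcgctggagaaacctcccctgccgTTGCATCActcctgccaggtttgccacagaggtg
AARS1: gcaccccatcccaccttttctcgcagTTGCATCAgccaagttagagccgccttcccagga
IARS1: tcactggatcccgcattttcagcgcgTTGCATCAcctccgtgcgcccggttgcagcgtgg
NARS1: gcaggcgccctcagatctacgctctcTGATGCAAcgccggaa
CARS1: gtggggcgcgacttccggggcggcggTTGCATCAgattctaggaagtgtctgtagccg
CEBPG: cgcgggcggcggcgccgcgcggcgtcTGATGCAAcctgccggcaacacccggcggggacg
TARS1: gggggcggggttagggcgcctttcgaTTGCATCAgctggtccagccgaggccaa
YARS2: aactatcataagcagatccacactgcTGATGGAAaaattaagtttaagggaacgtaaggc
GARS1: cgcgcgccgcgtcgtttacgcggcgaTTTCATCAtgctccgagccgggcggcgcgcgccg

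The core began 68 bases before the start of ASNS, 209 before CHAC1, 187 before AARS1 and 197 before YARS2. In the other 6 genes it lay within 42 bases of the start: 42 and 33 bases before the start of CEBPG and GARS1, 13 and 2 bases before that of IARS1 and CARS1, and from base 3 of TARS1 and base 15 of NARS1. In 6 of the 10 the letters were on the opposite strand. The form TGATGCAA, or its reverse TTGCATCA, was present in 7 genes, whereas ASNS, YARS2 and GARS1 differed from it at the base that N stands for.

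All 50 genes were above background on both arrays. The 127 probe sets for smell and bitter taste receptors were assumed, without a test, to be mostly silent in these cells. The background level was the signal under which 95% of them fell. It was 96.2 in HCC4006 and 91.6 in HCC4006ER, while the lowest signal of any of the 50 was 124, for TARS3 in HCC4006ER. At the 1.5-fold threshold of the study, 9 of the 50 were higher in HCC4006ER (CTH, LARS1, ASNS, TRIB3, STC2, CHAC1, PSAT1, AARS1 and CARS2) and 2 were lower (TARS3 and DDIT4). Over the 11896 genes above background on at least 1 array, 7.99% were higher and 11.2% were lower, and over the 10849 genes above background on both arrays, as all 50 were, the shares were 7.71% and 10.2%. The share of higher genes among the 50 (18.0%) was above these and the share of lower genes (4.0%) was below them. Past 2-fold, CTH was higher and TARS3 and DDIT4 were lower, against 2.13% and 3.06% of the same 10849 genes. The median log2 fold of the 50 was 0.11, against -0.03 for the 10849.

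Most of the 9 stood close to the threshold. A log2 fold of 0.585 corresponds to 1.5-fold, and the SD between probe sets of the same gene was 0.274 on the log2 scale, pooled over 5264 genes. This SD covers probe sets of the same pools and arrays and leaves out cultures and arrays. Of the 11 genes past the threshold, 8 were past it by less than that SD, and CTH, TARS3 and DDIT4 by more. Bright genes passed less often: among the 4971 genes at 1000 or more on both arrays, 4.83% were higher and 4.59% lower past 1.5-fold, while of the 36 described genes at that level 7 were higher and 1, DDIT4, was lower. When the arrays were instead given equal median signals, every log2 fold of the 50 moved up by 0.14, VARS1 and PHGDH also passed, and the split over all genes turned from 950 higher and 1328 lower to 1475 higher and 880 lower.

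**Figure D1:**
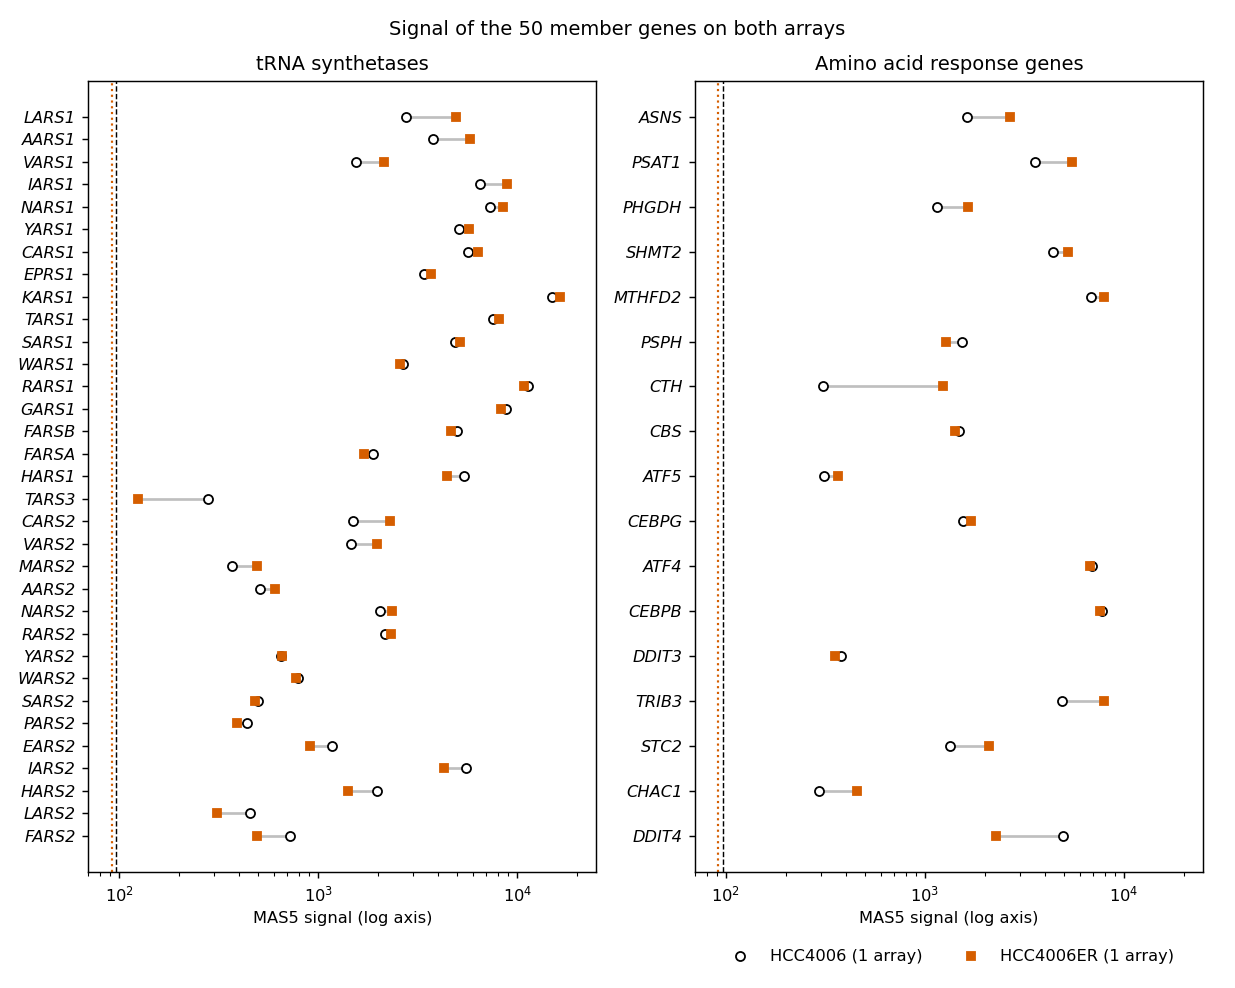
MAS5 signal on a log axis for the 33 synthetases (left) and the 17 other genes (right), with open circles for the HCC4006 array and filled squares for the HCC4006ER array. The dashed and dotted lines mark the background levels of 96.2 and 91.6; all points lie above them, and CTH has the widest gap.

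Cystathionine gamma-lyase, the enzyme that releases cysteine at the end of transsulfuration, had the largest difference of the 50. CTH read 307 in HCC4006 and 1226 in HCC4006ER, which is 3.99-fold higher, and its second probe set read 131 and 635, a log2 fold of 2.27. Only 45 of the 11896 genes above background had a larger log2 fold toward HCC4006ER. Cystathionine beta-synthase (CBS), which acts just before it in the pathway, was nearly equal at 1487 and 1423 (log2 fold -0.06), and its second probe set above background gave -0.05. The neighbouring steps of transsulfuration therefore differed in their folds by far more than the SD between probe sets.

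Of the 6 enzymes for asparagine, serine and one-carbon metabolism, ASNS and PSAT1 were higher past 1.5-fold (33.3%) and 4 lay within it. The shares over the 10849 genes above background on both arrays were 7.71% higher and 10.2% lower. Asparagine synthetase (ASNS), the classic ATF4 target whose promoter window is printed above, read 1627 in HCC4006 and 2685 in HCC4006ER (1.65-fold higher, log2 fold 0.72). In the serine pathway the first enzyme PHGDH read 1153 and 1638, a log2 fold of 0.51 that did not pass 1.5-fold, and the second, PSAT1, read 3569 and 5510 (1.54-fold, 0.63), with 0.78 in its other probe set. The last enzyme, the phosphatase PSPH, went the other way, at 1529 and 1273 (log2 fold -0.26), with -0.40 in its other probe set above background.

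Serine feeds the mitochondrial one-carbon pathway through SHMT2 and MTHFD2. SHMT2, which splits serine into glycine and a one-carbon unit, read 4417 and 5206 (log2 fold 0.24), and its 3 probe sets ranged from 0.24 to 0.55. MTHFD2, the next enzyme, read 6805 and 7971 (log2 fold 0.23), with the same value in its other probe set. Neither passed 1.5-fold. Over the 6 enzymes of this group 5 had a log2 fold above 0 and the median was 0.37. Among 8 other folate and serine enzymes above background on at least 1 array, none was called higher past 1.5-fold and 1 was lower (12.5%). The shares over all 11896 such genes were 7.99% higher and 11.2% lower. GLDC of the glycine cleavage system was 1.97-fold lower (184 and 93.4, the latter near the background level), and the median of the 8 was 0.10. That median counts SHMT1, at 44.9 in HCC4006 and 93.6 in HCC4006ER. Its HCC4006 signal was under the background level and was raised to it, so SHMT1 carries no usable fold.

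**Figure D2:**
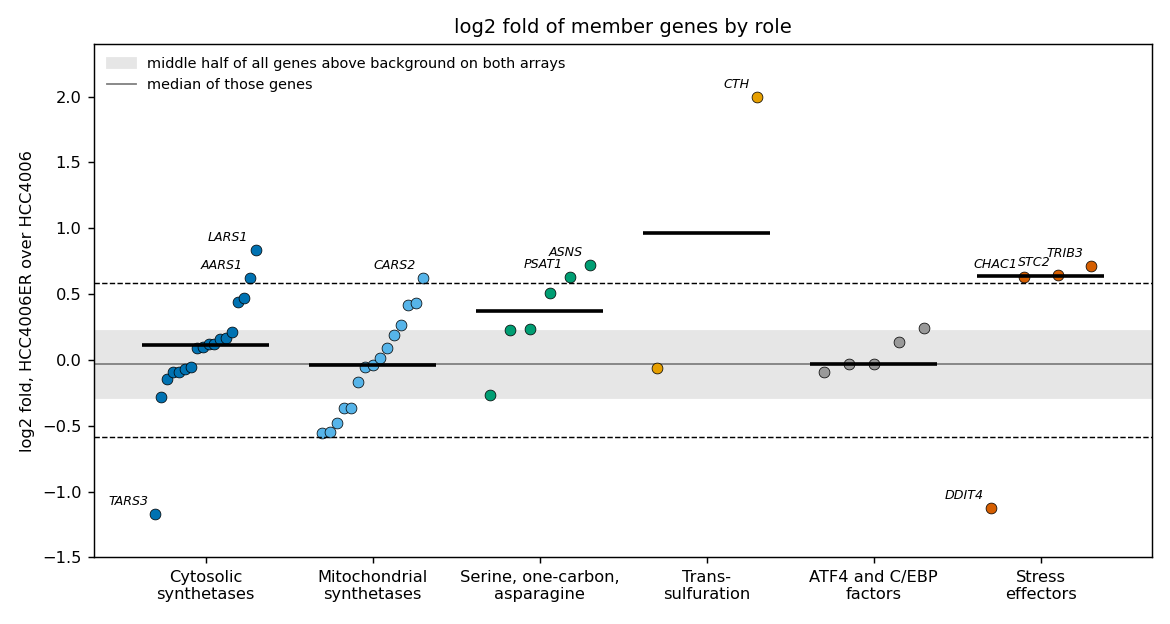
log2 fold between the arrays for each of the 50 genes by role. Points are genes, black bars are group medians, the dashed lines mark 1.5-fold, and the grey band spans the middle 50% of all genes above background on both arrays (-0.29 to 0.22); the ATF4 and C/EBP factors lie near 0 and 3 of 4 stress effectors lie just past 1.5-fold.

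The transcription factors themselves hardly differed. ATF4 was bright and nearly equal at 6940 in HCC4006 and 6785 in HCC4006ER, a log2 fold of -0.03. DDIT3 (CHOP), the C/EBP-related factor induced late in the response, read 377 and 354 (log2 fold -0.09). CEBPB, a partner of ATF4, read 7738 and 7563 (-0.03). These 3 log2 folds, each from 1 probe set, were smaller than the SD between probe sets, and at equal array medians they were 0.10 (ATF4), 0.05 (DDIT3) and 0.10 (CEBPB).

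The other 2 factors leaned upward. CEBPG, a C/EBP protein that forms dimers with ATF4 and has the element in its promoter, read 1554 and 1707 (log2 fold 0.13), and its second probe set gave 0.47. ATF5, which is itself under translational control, read 310 and 366 (0.24). None of the 5 passed 1.5-fold in either direction. The array reads mRNA only, so the translation of ATF4 and ATF5 was not measured.

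Of the 4 stress effectors, 3 were higher and 1 was lower past 1.5-fold. Over the 10849 genes above background on both arrays, 7.71% were higher and 10.2% were lower. TRIB3, a pseudokinase that feeds back on ATF4, read 4863 in HCC4006 and 7955 in HCC4006ER (1.64-fold higher), and its 2 probe sets gave the same log2 fold of 0.71. CHAC1, an enzyme that degrades glutathione, read 294 and 455 (1.55-fold, log2 fold 0.63) on 1 probe set. The secreted glycoprotein STC2 read 1334 and 2091 (1.57-fold, 0.65), but its other probe set read 1434 and 1648, a log2 fold of 0.20.

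DDIT4 (REDD1), an inhibitor of mTORC1 that responds to hypoxia and glucocorticoids as well as to ATF4, was the exception. It read 4941 in HCC4006 and 2269 in HCC4006ER, 2.18-fold lower (log2 fold -1.12), on its 1 probe set. NDRG1, another stress and hypoxia gene from the wider list of reported ATF4 targets, was lower as well, at 2278 and 1195 (log2 fold -0.93).

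The cytosolic synthetases were bright on both arrays and mostly close to equal. Of 18, LARS1 and AARS1 were higher past 1.5-fold (11.1%), TARS3 was lower (5.56%) and 15 lay within it, and the median log2 fold was 0.11. The shares over the 10849 genes above background on both arrays were 7.71% higher and 10.2% lower. LARS1, which charges leucine tRNA, read 2759 in HCC4006 and 4919 in HCC4006ER (1.78-fold higher, log2 fold 0.83). Its 4 probe sets did not agree, since the others gave 0.82, 0.30 and, at 908 and 899, -0.01, so that their mean was 0.49 and did not pass 1.5-fold. AARS1, for alanine, read 3779 and 5815 (1.54-fold, 0.62) on 1 probe set.

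The enzymes for the other branched-chain amino acids lay within 1.5-fold. VARS1, for valine, read 1540 and 2131 (log2 fold 0.47), with 0.64 in its other probe set, and IARS1, for isoleucine, read 6505 and 8831 (0.44). VARS1 passed 1.5-fold at equal array medians and in its other probe set.

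TARS3, a second threonyl-tRNA synthetase gene, was 2.25-fold lower, at 279 in HCC4006 and 124 in HCC4006ER (log2 fold -1.17). Its HCC4006ER signal was only a little above the background level of 91.6, and with the level set at the 99th percentile of the receptor probe sets the log2 fold was -0.78. The main threonine enzyme TARS1, with the element at its start, was bright and nearly equal at 7542 and 8092 (log2 fold 0.10). TARS1 was among 13 cytosolic genes that ran from a log2 fold of -0.28 (HARS1, for histidine, 5402 and 4436) to 0.21 (NARS1, for asparagine, 7306 and 8468). WARS1, the tryptophan enzyme known to be induced by interferon-gamma, lay at -0.05 (2659 and 2567). Of 8 other interferon-gamma response genes above background none was higher past 1.5-fold, and GBP2 and PSMB9 were lower.

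Several cytosolic synthetases sit together in a multisynthetase complex. The 5 members measured had log2 folds of 0.83 (LARS1), 0.44 (IARS1), 0.12 (EPRS1, for glutamate and proline), 0.12 (KARS1, for lysine, the brightest at 14997 and 16332) and -0.07 (RARS1, for arginine). Their median of 0.12 was close to that of the other 13 cytosolic genes, 0.09. The other probe sets of EPRS1 gave 0.50 and 0.54. The complex's scaffold protein AIMP1 had a log2 fold of -0.24. Of 13 genes for scaffolding and tRNA handling, 1 was higher past 1.5-fold (the exporter XPO5) and 1 lower (ANKRD16), 7.69% each. Over the 10849 genes above background on both arrays the shares were similar, at 7.71% and 10.2%.

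Mitochondrial synthetases showed no common direction. Of 15, 1 was higher past 1.5-fold (6.67%) and none was lower, against 7.71% and 10.2% of the 10849 genes above background on both arrays. The log2 fold was above 0 in 7 and below 0 in 8, and the median was -0.04 (0.10 at equal array medians). CARS2, for cysteine, was higher at 1495 in HCC4006 and 2301 in HCC4006ER (1.54-fold, log2 fold 0.62), with 0.55 in its other probe set above background. VARS2, for valine (0.43), and MARS2, for methionine (0.42), came next. AARS2, for alanine, read 507 and 609 (0.26), although its other probe set read 167 and 123 (-0.44). At the low end were FARS2, for phenylalanine, at 719 and 490 (-0.55), LARS2, for leucine, at 453 and 311 (-0.55), and HARS2, for histidine, at 1973 and 1419 (-0.48). FARS2 and LARS2 each had a second probe set in the same direction, at -0.39 and -0.40.

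HARS1 and HARS2 are neighbours on chromosome 5 and are read away from each other, with starts 85 bases apart in the RefSeq table. Both were lower in HCC4006ER and neither passed 1.5-fold.

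For 12 amino acids both a cytosolic and a mitochondrial gene were measured, with FARSA and FARSB averaged as the subunits of the cytosolic phenylalanine enzyme. The cytosolic gene had the higher log2 fold in 9 pairs and the mitochondrial gene in 3, with a median difference of 0.15. In the leucine pair LARS1 and LARS2 differed by 1.38, and in the isoleucine pair IARS1 (0.44) and IARS2 (-0.37) by 0.81. Only these 2 differences were larger than 2 SDs between probe sets (0.548), and the first one depends on the LARS1 probe set used. The valine pair did not share this, with VARS1 at 0.47 and VARS2 at 0.43. In the cysteine pair the mitochondrial gene was the higher one by 0.46.

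**Figure D3:**
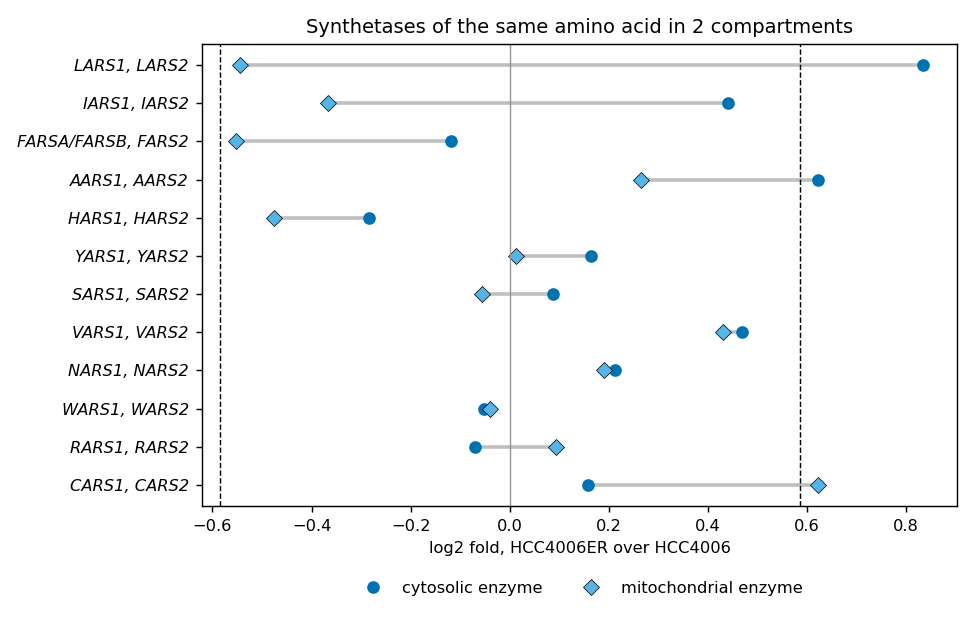
log2 fold of the cytosolic gene (circle) and the mitochondrial gene (diamond) for 12 amino acids, sorted by their difference, with dashed lines at 1.5-fold. LARS1 and LARS2 stand farthest apart, and CARS1 and CARS2 are farthest apart in the opposite direction.

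The 50 genes were covered by 102 probe sets, 82 of them above background on both arrays. In 22 of the 25 genes with at least 2 such probe sets all of them had the same direction, and LARS1, AARS2 and FARSA were the exceptions. The SD between probe sets within the 25 genes was 0.223. FARSA, a subunit of the phenylalanine enzyme, read 1888 and 1706 in the probe set used (log2 fold -0.15) and 1580 and 1895 in the other (0.26).

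**Figure D4:**
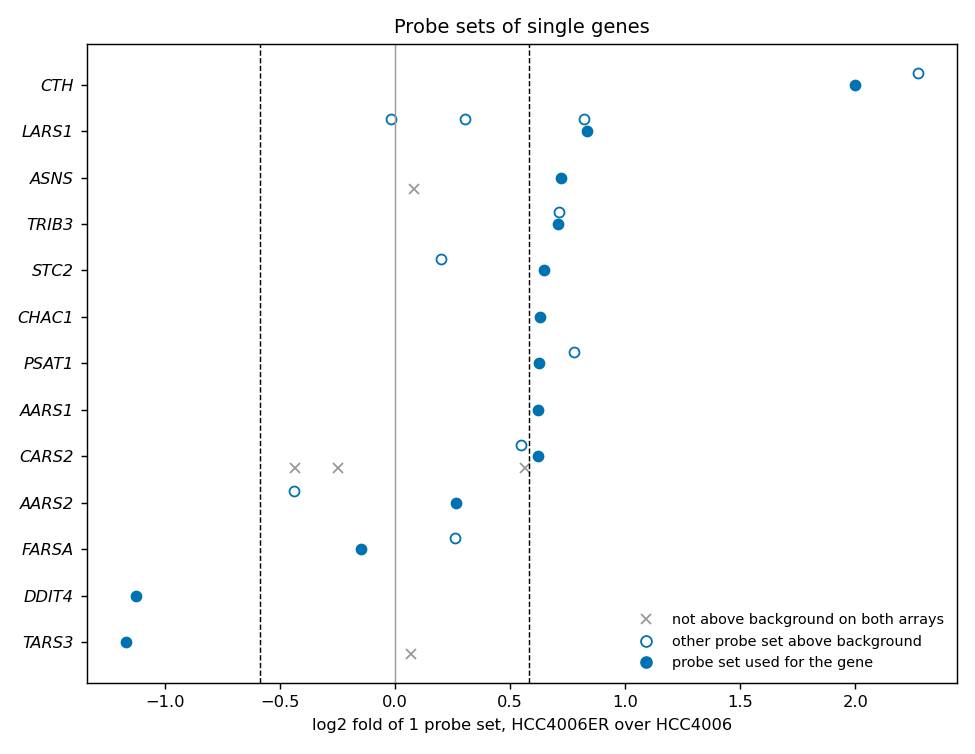
log2 fold of each probe set for the 11 genes past 1.5-fold and for AARS2 and FARSA, whose probe sets disagree. Filled circles are the probe sets used, open circles other probe sets above background on both arrays and crosses dim probe sets; CTH, LARS1, TRIB3 and PSAT1 have 2 probe sets past the dashed 1.5-fold line.

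Set beside the element printed above, 9 of the 10 genes that held it had a log2 fold above 0, and the median was 0.19. Of these 9, 3 were past 1.5-fold (ASNS, CHAC1 and AARS1). NARS1, CARS1, CEBPG, TARS1 and YARS2 were above 0 by less than the SD between probe sets, 0.274. Of the 32 genes with a promoter but without the core, 14 were above 0 and 18 below, 5 were higher and 1 lower past 1.5-fold, and the median was -0.04. The 8 genes whose promoter was not in the table had a median of 0.25, above that of the genes with the core, with 6 above 0, 1 higher and 1 lower past 1.5-fold, so how they would divide is unknown. At equal array medians each of these medians moves up by the same 0.14. Over the 10849 genes above background on both arrays, 46.7% had a log2 fold above 0 and the median was -0.03. Of those genes, 7.71% were higher and 10.2% were lower past 1.5-fold. CTH, PSAT1, TRIB3, STC2 and CARS2 were higher without the letters in this window, and GARS1, for glycine, held them at a log2 fold of -0.09 (8803 and 8279).

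**Figure D5:**
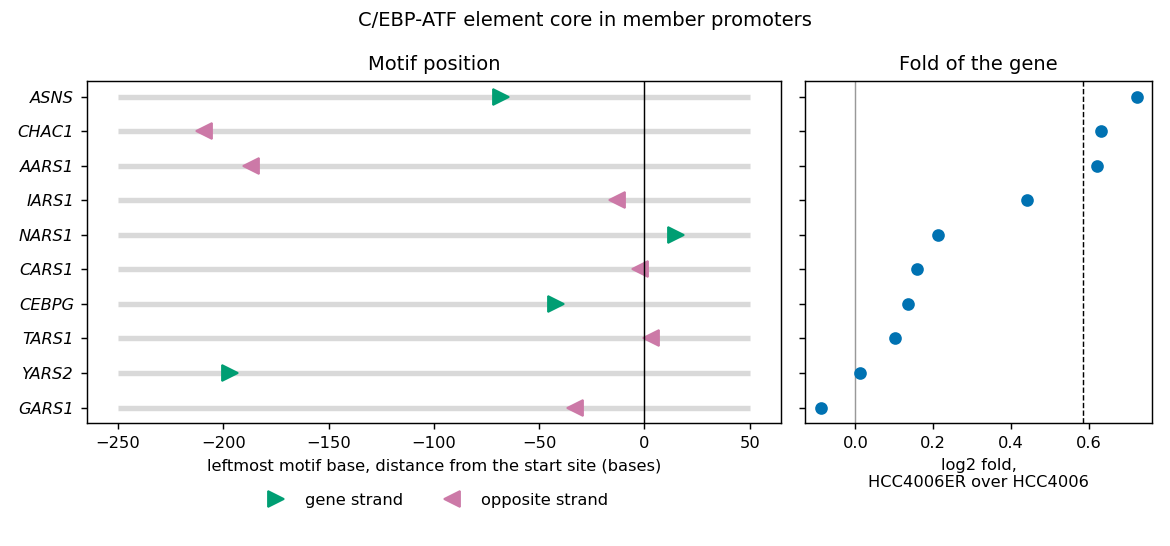
Left, position of the leftmost base of the core relative to the start of the gene in the 10 promoters that held it, with the arrow giving the strand and the grey bar the searched window. Right, log2 fold of the same gene with a dashed line at 1.5-fold; the log2 folds run from -0.09 (GARS1) to 0.72 (ASNS).

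The wider pathway, from lists of genes that are not among the 50, gave the following counts. Of 28 other reported ATF4 targets above background, 9 were higher (32.1%) and 4 lower (14.3%) past 1.5-fold, with a median log2 fold of 0.28. Both shares were above those of all genes above background, 7.99% and 11.2%. The list was chosen with earlier results of these data known, so this comparison is a description only. The 9 higher genes include ADM2 (82.7 and 180), which was under the background level in HCC4006, so its fold is a bound. The stress factor ATF3 read 549 in HCC4006 and 1477 in HCC4006ER (2.69-fold higher), the leucine transporter SLC7A5 2280 and 5630 (2.47-fold), and the chloride channel protein CLIC4 2894 and 6941 (log2 fold 1.26). The amino acid transporters SLC1A4 (1.86-fold), SLC7A1 (1.68-fold) and SLC3A2 (1.62-fold), the partner of SLC7A5, were higher too. The 4 lower genes were NDRG1, the secreted growth factors GDF15 (1272 and 684, log2 fold -0.89) and VEGFA (3969 and 2409, -0.72), and NUPR1 (285 and 183, -0.64). The core was held by 9 of the 25 genes of this list with a promoter (36.0%). Of these, ATF3, SLC1A4, SLC7A1 and SLC3A2 were higher past 1.5-fold, GOT1 (0.41), SLC1A5 (0.09) and JDP2 (0.07) lay within it, and FGF21 and MTHFD1L were under the background level on both arrays.

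Upstream of ATF4, 2 of 16 genes for eIF2 and the factors that act on it were higher past 1.5-fold (12.5%) and none was lower. The other 14 lay within 1.5-fold. Over the 10849 genes above background on both arrays, 7.71% were higher and 10.2% were lower. The kinase of endoplasmic reticulum stress, EIF2AK3 (PERK), was 1.86-fold higher at 921 and 1712, and PPP1R15A (GADD34), which directs the phosphatase to eIF2, was 2.01-fold higher at 666 and 1337. The amino acid sensing kinase EIF2AK4 (GCN2) read 898 and 971 (log2 fold 0.11). Of 17 endoplasmic reticulum stress genes of the other arms, SEL1L (1.99-fold) and HERPUD1 (1.52-fold) were higher (11.8%) and none was lower. The shares to compare are the same 7.71% and 10.2%. The chaperone HSPA5 was nearly equal at a log2 fold of 0.04. Among 10 regulators of growth 1 was higher (10.0%, against the same 7.71%), which was MTOR, 2.26-fold from low signals (136 and 306). The others lay within 1.5-fold.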

How the data were processed

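The authors deposited 1 MAS5 signal intensity per probe set and array, on a linear scale without detection calls (the submitters' processing notes name GCOS 1.4). The 2% trimmed mean was 500.1 on both arrays of 54675 probe sets. The number of arrays limits the precision. Gene names came from the platform annotation for 41097 probe sets with 1 symbol, of which 41043 were updated through a RefSeq table of GRCh38.p14. Where a gene had several probe sets, the brightest by mean log2 signal was used. A signal under the background level was raised to it, and no fold was given where both were under it. A log2 fold is HCC4006ER over HCC4006. Every member could be named; of the other lists, those with the largest folds past 1.5-fold and EIF2AK3, EIF2AK4, ATF3 and PPP1R15A were, while HSPA5, AIMP1, SLC1A4, SLC1A5, SLC7A1, SLC3A2, GOT1, JDP2, FGF21, MTHFD1L, GDF15, VEGFA and NUPR1 were named after their values were seen. SHMT1 and ADM2 were also named after their values were seen. Members and lists were chosen with earlier results of these data known. The steps were tested on simulated data. The tools were matplotlib 3.10.9, scipy 1.17.1, pandas 2.3.3, numpy 2.4.6 and Python 3.11.15. Alternatives were other scalings, other choices of probe set, other background levels, the measured ratio and a 2-fold threshold.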

Additional observations from a re-analysis of the deposited data

How the results depend on the processing

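The count of genes higher past 1.5-fold was 9 and ran from 6 to 11 under 11 other settings, and that of lower genes was 2 and ran from 1 to 3. At 2-fold in place of 1.5-fold, 1 gene was higher (CTH) and 2 were lower. Leaving out probe sets that can match several transcripts (_x_at and _s_at), which left 39 of the 50 genes, 6 were higher and 1 was lower. Over the genes at 1000 or more on both arrays, a level chosen after seeing the data, 1 was lower. As the mean over all of a gene's probe sets, ASNS (log2 fold 0.40), CARS2 (0.21), LARS1 (0.49), STC2 (0.42) and TARS3 (-0.55) no longer passed 1.5-fold, while RARS2 (0.68) and FARS2 (-0.64) newly passed, so that the lower genes were then DDIT4 and FARS2. Over probe sets above background on both arrays, CARS2, LARS1 and STC2 did not pass. ASNS (0.72) and TARS3 (-1.17) did pass there, and RARS2 (0.265) and FARS2 (-0.47) did not. For ASNS, TARS3, RARS2 and FARS2 the change therefore came from averaging in probe sets that were not above background. AARS1, CHAC1, CTH, DDIT4, PSAT1 and TRIB3 passed under each setting that gave a value. When the most different probe set was taken, the median log2 fold of the transsulfuration enzymes was 2.27, since only CTH had a value, and VARS1 (0.64) and EARS2 (-0.63) newly passed. The cause was not tested for the shifts not explained above. Of 530 values of single genes under the alternatives, 17 moved by more than the SD between probe sets and 0 of the genes past 1.5-fold changed direction. No paired analysis was possible because each group has 1 sample, and no array could be left out.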
